A study of Homo sapiens with 18 samples.

Results

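The solute carrier (SLC) genes encode membrane proteins that move ions, metals, nutrients, metabolites and drugs across the plasma membrane or organelle membranes. The genes described here were every row of the deposited expression table whose symbol starts with SLC or SLCO and a number, which gave 71 of 3074 listed genes. The cells were SJSA-1, an osteosarcoma line that carries extra copies of MDM2, the ubiquitin ligase that keeps p53 low. Poly(A)-enriched RNA was sequenced from 6 groups of 3 libraries each. Cells received 1 µg/mL neocarzinostatin (NCS), an enediyne that breaks DNA, or its DMSO vehicle for 48 h, and this was renewed when a compound at 1 µM or DMSO was added for a last 24 h, so that NCS was present for 72 h. The groups were NCS and MD-224, NCS and MI-1061, NCS alone, MD-224, MI-1061, and DMSO alone, and all 18 libraries came from the same line. MI-1061 is an inhibitor that occupies the p53-binding pocket of MDM2. MD-224 is a degrader built from that ligand joined to a cereblon ligand. The treatment label of some libraries spells the inhibitor with other digits (MI-1016) than the titles, and the titles were followed. Nothing in the labels says that the 3 libraries of a group came from separate cultures, so p-values measure the spread between libraries, which may be technical.

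SLC families are numbered by sequence relationship, and members of 1 family usually share a class of substrate. Most work without ATP: they carry a solute down its gradient, exchange it for another, or couple it to the gradient of sodium, protons or chloride. In a tumour cell they supply glucose and amino acids, export acid and metals, and move sugars and acyl groups between organelles. Of the 71 members, 70 are annotated as protein coding and 1 as a pseudogene, SLC22A20 (SLC22A20P). They lie on 22 chromosomes. By family number they fell into 14 substrate classes, the largest being 12 ion transporters, 8 metal transporters, 8 organic ion transporters and 7 sugar transporters. Names matched RefSeq by symbol for 68 members and by synonym for 3, and coordinates are those of RefSeq on GRCh38.p14.

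Promoters are shown for 4 members because the results below turn on them or because they hold the only p53 half-sites found among the members. A half-site is the decamer that p53 binds as a pair, and it was searched by its consensus, which reads the same on both strands. Each sequence runs 5′ to 3′ on the gene's strand from 250 bases before to 50 after the start in the RefSeq table, with half-sites in capitals. SLC25A25 (chr9:128098257-128098556, plus strand) is an ATP-magnesium and phosphate carrier of mitochondria, and SLC16A12 (chr10:89535545-89535844, minus strand) is a creatine transporter. Both are shown from an inner start of the gene. SLC30A1 (chr1:211579112-211579411, minus strand), the zinc exporter of the plasma membrane, and SLC2A12 (chr6:134052575-134052874, minus strand), a glucose transporter, are shown as 2 of the members with large responses and hold no half-site in this window.
SLC25A25: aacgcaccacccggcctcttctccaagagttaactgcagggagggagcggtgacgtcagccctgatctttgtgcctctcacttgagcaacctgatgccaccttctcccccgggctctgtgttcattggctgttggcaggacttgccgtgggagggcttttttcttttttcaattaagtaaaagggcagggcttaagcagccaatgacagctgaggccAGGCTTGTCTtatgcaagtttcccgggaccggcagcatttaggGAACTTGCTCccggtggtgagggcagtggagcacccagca
SLC16A12: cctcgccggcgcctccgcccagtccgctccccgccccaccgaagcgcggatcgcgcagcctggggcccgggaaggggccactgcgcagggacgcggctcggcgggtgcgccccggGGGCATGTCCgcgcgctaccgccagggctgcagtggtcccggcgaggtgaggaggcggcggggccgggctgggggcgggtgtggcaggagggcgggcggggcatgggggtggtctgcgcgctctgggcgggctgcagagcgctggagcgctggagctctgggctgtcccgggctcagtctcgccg
SLC30A1: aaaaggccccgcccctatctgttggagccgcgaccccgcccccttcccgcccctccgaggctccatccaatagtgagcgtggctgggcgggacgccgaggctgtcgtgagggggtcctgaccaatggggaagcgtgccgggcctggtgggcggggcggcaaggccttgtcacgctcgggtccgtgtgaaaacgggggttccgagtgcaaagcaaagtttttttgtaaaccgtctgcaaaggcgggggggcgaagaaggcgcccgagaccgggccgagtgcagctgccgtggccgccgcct
SLC2A12: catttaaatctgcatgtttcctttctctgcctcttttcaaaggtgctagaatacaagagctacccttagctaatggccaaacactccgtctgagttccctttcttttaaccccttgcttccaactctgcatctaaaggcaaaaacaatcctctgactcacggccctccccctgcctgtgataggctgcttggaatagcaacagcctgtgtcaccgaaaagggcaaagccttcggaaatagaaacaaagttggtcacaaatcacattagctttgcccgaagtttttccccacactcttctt
Of 71 members, 56 had a promoter in the table, and 2 of these (3.57%) held a half-site, against 6.95% of 2115 listed genes matched by symbol and 6.54% of 27305 promoters in the table. In SLC25A25 the half-sites start at -33 and 11 relative to the start, and in SLC16A12 the half-site starts at -135. A pair of half-sites with a gap of up to 13 bases was in 0 of the 56 members' promoters, 0.0946% of listed genes' and 0.0293% of all. These matches are a description of letters in a 300-base window.

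The values are normalized counts, that is, read counts divided by a factor per library. In every listed gene the mean with NCS and MI-1061 was 1.751 times the DMSO mean or more, with a median of 2.997-fold. Over the members the median was 2.77-fold and the range 1.757 to 25.621. The table is thus a selection, and that contrast was not tested. Any contrast that uses those libraries is conditioned on the selection. MD-224 against MI-1061 without NCS, and MD-224 after NCS against NCS, use neither group, but the genes they cover were still chosen by it. A gene with a lower mean with NCS than with DMSO could be listed only if NCS and MI-1061 exceeded NCS. Among members this held for SLC2A8, SLC16A10, SLC25A15, SLC25A16, SLC25A25, SLC27A2, SLC35D1, SLC35E3 and SLC40A1. The sign of their difference between NCS and MI-1061 and NCS alone was thus set in advance. Of the 18 libraries, 13 gave whole reads back, with 4490870 to 10535849 listed reads each. The treatments showed in MDM2, whose normalized counts averaged 832815 ± 132103 with NCS and MD-224, 2459876 ± 76699 with NCS and MI-1061, and 182308 ± 5967 after NCS alone, then 407832 ± 63782 with MD-224, 1572225 ± 337405 with MI-1061 and 135076 ± 25705 with DMSO (SD, n = 3 each). CDKN1A, the p53 target that arrests the cell cycle, averaged 311990.2 ± 87608 with NCS and MD-224, 712597 ± 53235 with NCS and MI-1061, and 64565 ± 5308 after NCS alone, then 90724 ± 11511 with MD-224, 354674 ± 9038 with MI-1061 and 11841 ± 1583 with DMSO. Of the osteoblast markers, 2 of 8 were listed (COL1A2 and SPP1), with summed levels of 42592 to 55354 with NCS and MD-224, 40586 to 50356 with NCS and MI-1061, and 38211 to 48449 after NCS alone, then 27496 to 41493 with MD-224, 8144 to 14624 with MI-1061 and 11116 to 20332 with DMSO. Of haematopoietic markers 3 of 5 were listed (ITGAM, CD68 and LAPTM5), with sums of 3418 to 4506 with NCS and MD-224, 4852 to 4962 with NCS and MI-1061, and 2302 to 2498 after NCS alone, then 783 to 1085 with MD-224, 2412 to 3052 with MI-1061 and 439.9 to 1111 with DMSO. Of endothelial markers 1 of 3 was listed (VWF), with 1513 to 2535 with MI-1061 and at most 270.2 in every other group, and 0 of 4 epithelial markers were listed. The part of these markers in the results was not tested. A gene that is not listed is not shown to be absent, and in bulk RNA fewer cells of a kind and less RNA per cell cannot be told apart.

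Most SLC members were higher with NCS and with MI-1061, as were most listed genes, and few moved further with MD-224 after NCS. NCS alone raised 52 of 71 members (73.2%), against 54% of all listed genes, and lowered 1 member, SLC16A10, against 1.3% of listed genes. MI-1061 raised 41 (57.7%), against 67.6% of listed genes, and lowered 6 (SLC9A7, SLC22A17, SLC25A16, SLC40A1 and SLC41A2 among them), against 4.46%. MD-224 raised 33 (46.5%), against 39.9%, and lowered 4 (SLC15A2, SLC16A10, SLC25A25 and SLC30A3), against 2.8%. With edgeR on recovered reads MD-224 raised 20 members, against 26.7% of listed genes, and lowered 2, against 1.46%. In limma on those groups alone it raised 19, against 26.5%, and lowered 2, against 1.6%. After NCS, MI-1061 raised 46 members over NCS alone (64.8%), against 70.5%, and lowered 1, SLC17A5, against 0.748%. MD-224 after NCS raised 7 (9.86%), against 15.1%, and lowered 0, against 0%, in limma with adjusted p under 0.05, as in all these counts. For MD-224 after NCS, 17 members had an unadjusted p under 0.05, a count not made over listed genes. A block on the replicate number gave 11 calls in place of 7, against 755 of 3073 listed genes. The 7 calls became 4 without NCS replicate 2, 4 without NCS replicate 3 and 3 without replicate 1 of NCS and MD-224. Listed genes called were then 287, 283 and 186 of 3073. The comparisons against DMSO share the DMSO libraries, and those against NCS share the NCS libraries. The only member called in no pairwise comparison was SLC13A4, a sulfate transporter.

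The members' median log2 fold change was 0.74 with NCS, against 0.66 over all listed genes, 0.76 with MI-1061, against 1.00, and 0.55 with MD-224, against 0.48. After NCS it was 0.86 with MI-1061, against 0.97, and 0.26 with MD-224, against 0.30. Much of the direction rests on how libraries were scaled. TMM scaling assumes that most genes are unchanged, yet every listed gene was selected as higher with NCS and MI-1061 than with DMSO. Medians near 0 under it thus follow from the method. A call that it ends or turns says only how a gene moved relative to the other listed genes. Under TMM scaling, which sets the bulk of the listed genes level between libraries, the median of listed genes was -0.01 with MD-224, 0.01 with MI-1061 and 0.06 with NCS, and -0.02 after NCS with either compound. Under it, NCS raised 10 members (14.8% of listed genes) and lowered 8 (15.2%), MI-1061 raised 21 (30.7%) and lowered 27 (30.1%), and MD-224 raised 10 (10.6%) and lowered 13 (11.6%). After NCS, MI-1061 raised 18 (23.9%) and lowered 21 (19.3%), and MD-224 raised 1 (3.78%) and lowered 0 (0.195%). Below, a member's TMM value is given where that scaling ends its call or turns its sign.

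**Figure D1:**
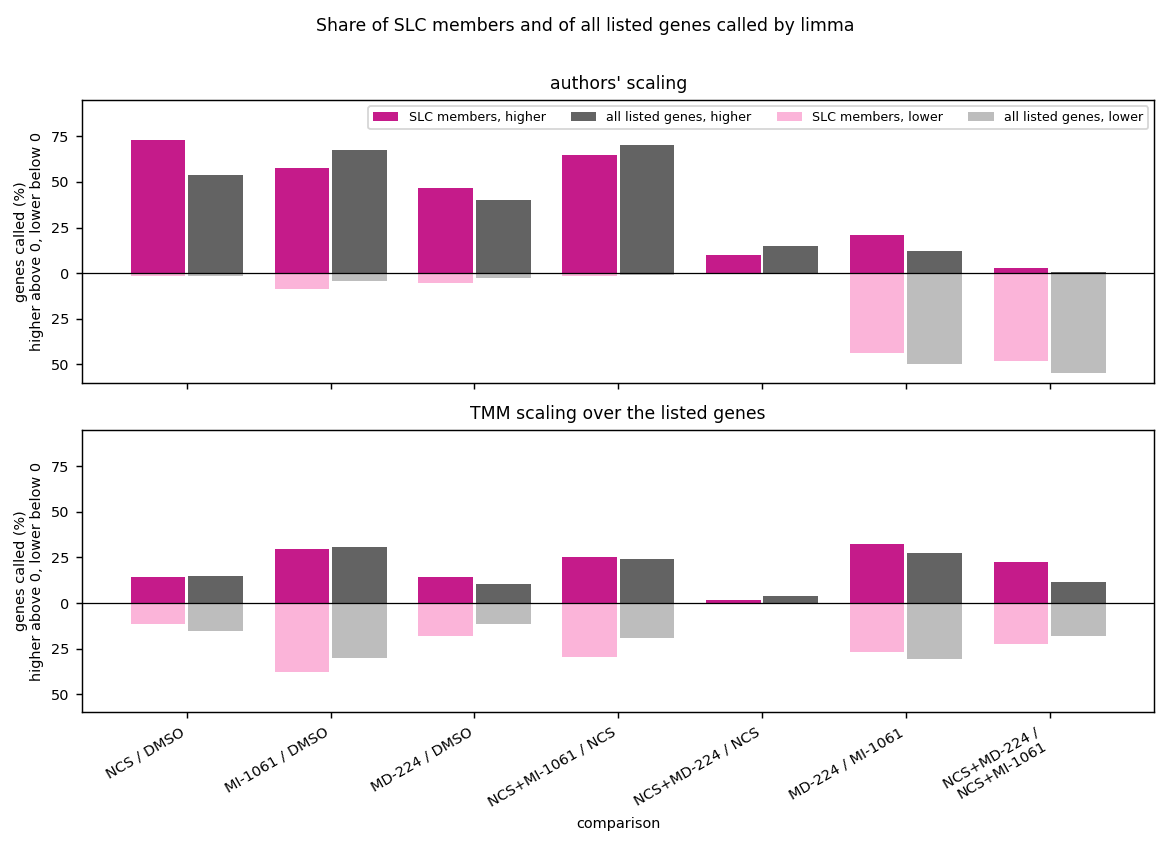
Bars give the percentage of genes called higher (above 0) or lower (below 0) by limma in each of the 7 pairwise comparisons, for the 71 SLC members and for all listed genes, with the deposited scaling in the upper panel and TMM scaling in the lower one. In the upper panel higher calls outnumber lower ones against DMSO and against NCS, with 73.2% of members and 54% of listed genes higher with NCS, while in the lower panel 10 members are higher and 8 lower with NCS.

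The members' normalized counts made up 1.05% to 1.10% of the listed sum with NCS and MD-224, 0.935% to 0.964% with NCS and MI-1061, and 1.22% to 1.25% after NCS alone. Without NCS they made up 1.11% to 1.15% with MD-224, 0.899% to 0.909% with MI-1061 and 1.14% to 1.26% with DMSO. The share was lowest in the libraries with MI-1061, with no overlap with any other group, and the listed sum includes MDM2 and CDKN1A. By mean over 18 libraries, 21 members were under 100, 23 between 100 and 1000 and 27 at 1000 or over. Among the 5 members with the highest mean counts, the mean normalized counts per kilobase of exon were 1686 for SLC38A10, 958 for SLC35E1, 913 for SLC12A4 and 471 for SLC7A6.

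**Figure D2:**
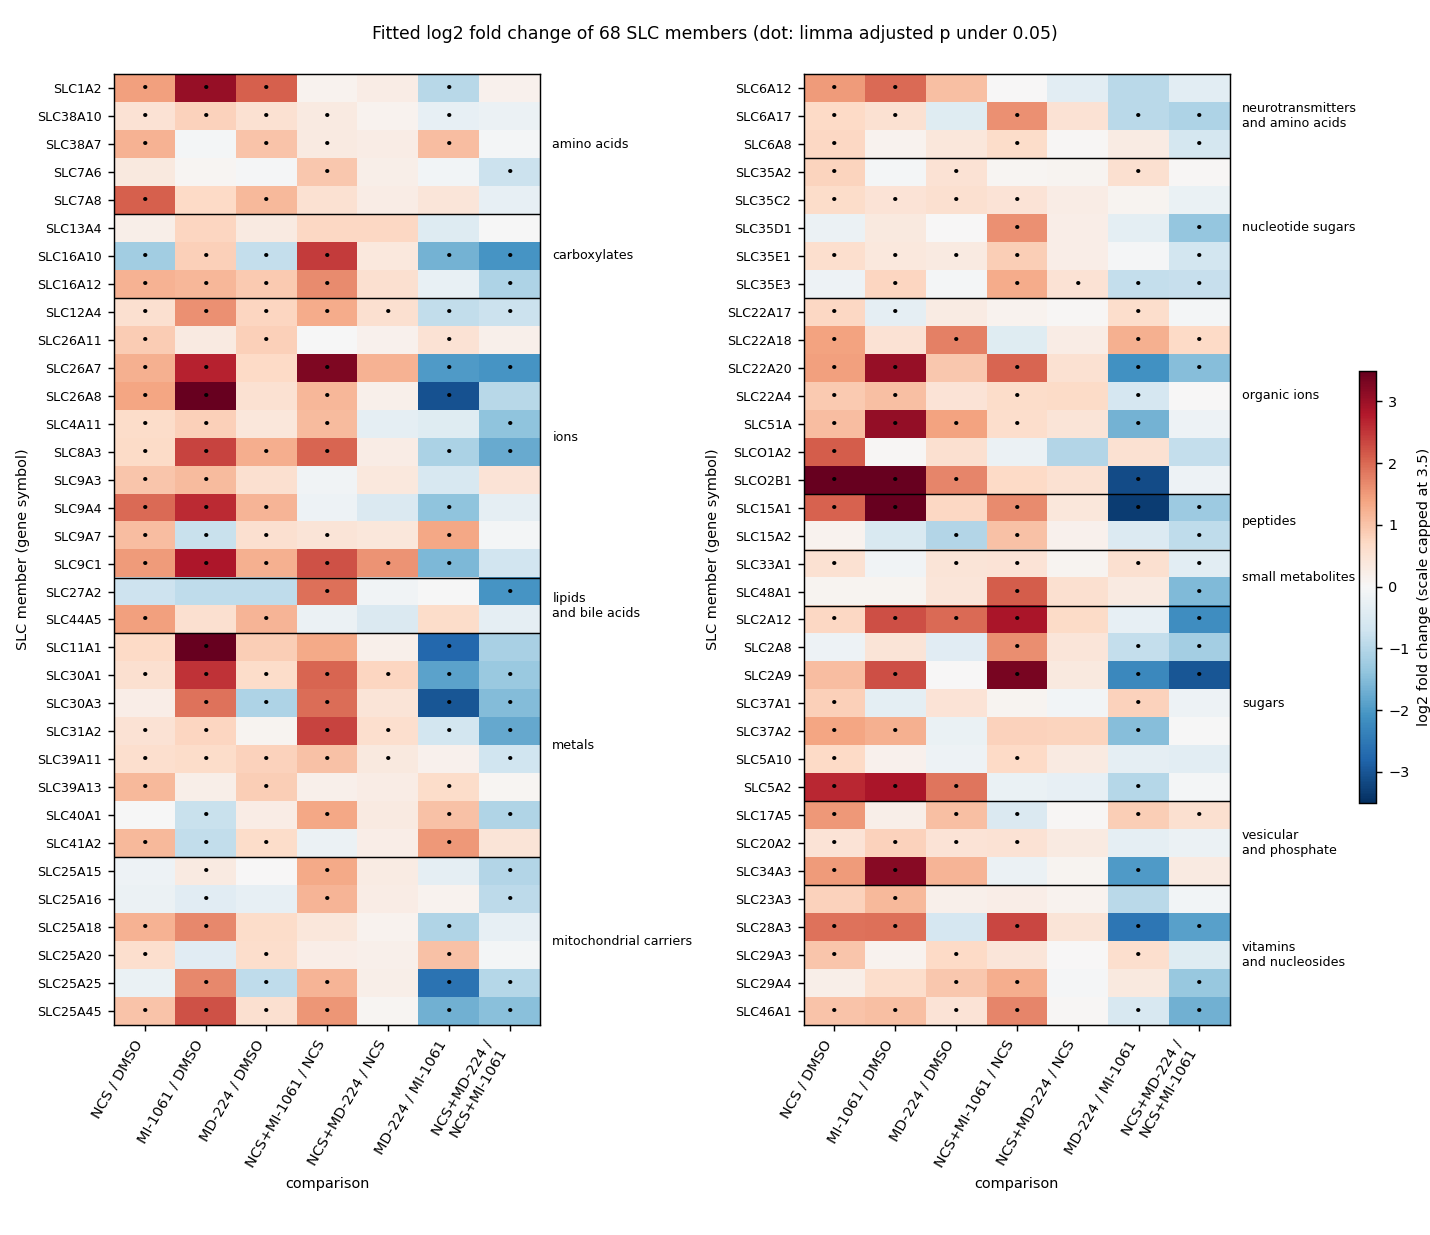
Each row is 1 of 68 SLC members, grouped by substrate class, and each column is 1 of the 7 pairwise comparisons. Colour gives the fitted log2 fold change (red higher, blue lower, capped at 3.5) and a dot marks a limma call. Red prevails in the columns for NCS (50 of these called higher) and MI-1061 (40), while the column of MD-224 against MI-1061 holds 30 blue calls and 14 red ones.

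Among the 12 ion transporters, 12 rose with NCS, against 54% of listed genes (2 under TMM scaling). With MI-1061 9 rose, against 67.6%, and 2 fell, against 4.46% (7 and 3 under TMM scaling). With MD-224 7 rose, against 39.9% (1 rose and 1 fell under TMM scaling). After NCS, 9 rose with MI-1061, against 70.5% (5 rose and 5 fell under TMM scaling), and 3 with MD-224, against 15.1% (1 under TMM scaling).

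SLC12A4 (chr16:67943474-67968694), a potassium-chloride cotransporter used in volume control, had normalized counts of 8572, 7178 and 7019 with NCS and MD-224 and 13089, 12587 and 12320.1 with NCS and MI-1061, against 5245, 4637 and 5599 with NCS. Its counts without NCS were 6410.3, 5629.7 and 5568 with MD-224 and 10029, 9961 and 12010.2 with MI-1061, against 3792, 3216 and 3488 with DMSO. Its groups did not overlap within either set, and the order was MI-1061, MD-224, then the cells without compound. SLC12A4 was called in all 7 pairwise comparisons, and it rose with MI-1061 (log2 fold change 1.61, SE 0.11, limma adjusted p = 2.28e-09), with MI-1061 after NCS (1.30, SE 0.11, limma adjusted p = 2.78e-08) and with MD-224 after NCS (0.55, SE 0.11, limma adjusted p = 0.0031, and 0.23 with limma adjusted p = 0.363 under TMM scaling). SLC9A7 (chrX:46599251-46759118), a sodium-proton exchanger of the trans-Golgi network, had 3250.2, 2792 and 3854 with NCS and MD-224 and 3666, 3125 and 3538 with NCS and MI-1061, against 2601, 2561 and 2321 with NCS. Without NCS the counts were 1681, 2005 and 1639.6 with MD-224 and 675, 757 and 630.2 with MI-1061, against 1287, 1282 and 1016 with DMSO, so that MD-224 lay above and MI-1061 below DMSO with no overlap. It fell with MI-1061 (log2 fold change -0.79, SE 0.14, limma adjusted p = 8.61e-05), rose with MD-224 (0.57, SE 0.14, limma adjusted p = 0.00401, and 0.08 with limma adjusted p = 0.715 under TMM scaling) and rose with NCS (1.07, SE 0.14, limma adjusted p = 1.7e-05).

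Ion transporters with low counts gave larger folds and wider errors. SLC26A7, an anion transporter on chromosome 8, had 82.3, 63.8 and 30.4 with NCS and MD-224 and 237, 226 and 225 with NCS and MI-1061, against 19.6, 29.2 and 20.6 with NCS. In the absence of NCS it had 33.3, 16.7 and 6.28 with MD-224 and 48.9, 67.2 and 81.5 with MI-1061, against 10.9, 6.73 and 10.2 with DMSO. The libraries with NCS and MI-1061 stood apart, the lowest at 225 and the next highest of any other group at 82.3. SLC26A7 rose with MI-1061 after NCS (log2 fold change 3.28, SE 0.47, limma adjusted p = 7.45e-06) and with MI-1061 alone (2.69, SE 0.47, limma adjusted p = 5.9e-05). SLC9C1, a sodium-proton exchanger of sperm, had 241, 94.2 and 237 with NCS and MD-224 and 386, 206 and 272 with NCS and MI-1061, against 79.5, 40.3 and 63.7 with NCS. Its values without NCS were 74.6, 26.4 and 61.8 with MD-224 and 165, 139 and 144 with MI-1061, against 24.1, 9.61 and 34.8 with DMSO. It was highest with NCS and MI-1061, where its lowest library lay below the 2 highest with NCS and MD-224. SLC9C1 rose with MI-1061 (log2 fold change 2.82, SE 0.48, limma adjusted p = 4.69e-05) and with MD-224 after NCS (1.56, SE 0.48, limma adjusted p = 0.0345, and 1.23 with limma adjusted p = 0.214 under TMM scaling). The MD-224 call was lost without 4 of the 6 libraries compared, with limma adjusted p = 0.142 without NCS replicate 2, 0.0798 without NCS replicate 3, 0.176 without NCS and MD-224 replicate 1 and 0.112 without replicate 3 of that group.

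The other ion transporters are given as means ± SD (n = 3 libraries each). SLC8A3, a sodium-calcium exchanger of excitable cells, averaged 492 ± 122 with NCS and MD-224 and 1656 ± 277 with NCS and MI-1061, against 401 ± 60.5 with NCS, and 610.5 ± 80.4 with MD-224 and 1307 ± 116 with MI-1061, against 259 ± 74.4 with DMSO. It rose with MI-1061 (log2 fold change 2.36, SE 0.22, limma adjusted p = 4.42e-08), with MD-224 (1.26, SE 0.22, limma adjusted p = 0.000229) and with MI-1061 after NCS (2.04, SE 0.22, limma adjusted p = 2.56e-07). SLC26A8, an anion transporter of testis, averaged 7.33 ± 3.63 with MD-224 and 62.4 ± 0.640 with MI-1061, against 4.83 ± 3.16 with DMSO, and rose with MI-1061 (log2 fold change 3.59, SE 0.47, limma adjusted p = 3.13e-06). SLC9A4, an exchanger of the stomach, averaged 28.5 ± 18.2 with MD-224 and 67.3 ± 6.32 with MI-1061, against 10.7 ± 4.43 with DMSO, and rose with MI-1061 (log2 fold change 2.61, SE 0.42, limma adjusted p = 2.63e-05) and with NCS (1.99, SE 0.42, limma adjusted p = 0.000848). SLC4A11 averaged 280.0 ± 51.3 with NCS and MD-224 and 747 ± 117 with NCS and MI-1061, against 344 ± 29.3 with NCS. SLC26A11, a sulfate transporter, averaged 1873 ± 210.4 with MD-224 and 1343 ± 356 with MI-1061, against 1068 ± 229 with DMSO. SLC9A3, the sodium-proton exchanger of gut and kidney, averaged 126 ± 14.5 with NCS and MD-224 and 91.9 ± 21.9 with NCS and MI-1061, against 97.7 ± 6.35 with NCS, and 56.7% of its exon bases overlap PP7080 and other genes, so its reads cannot be told apart from theirs.

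**Figure D3:**
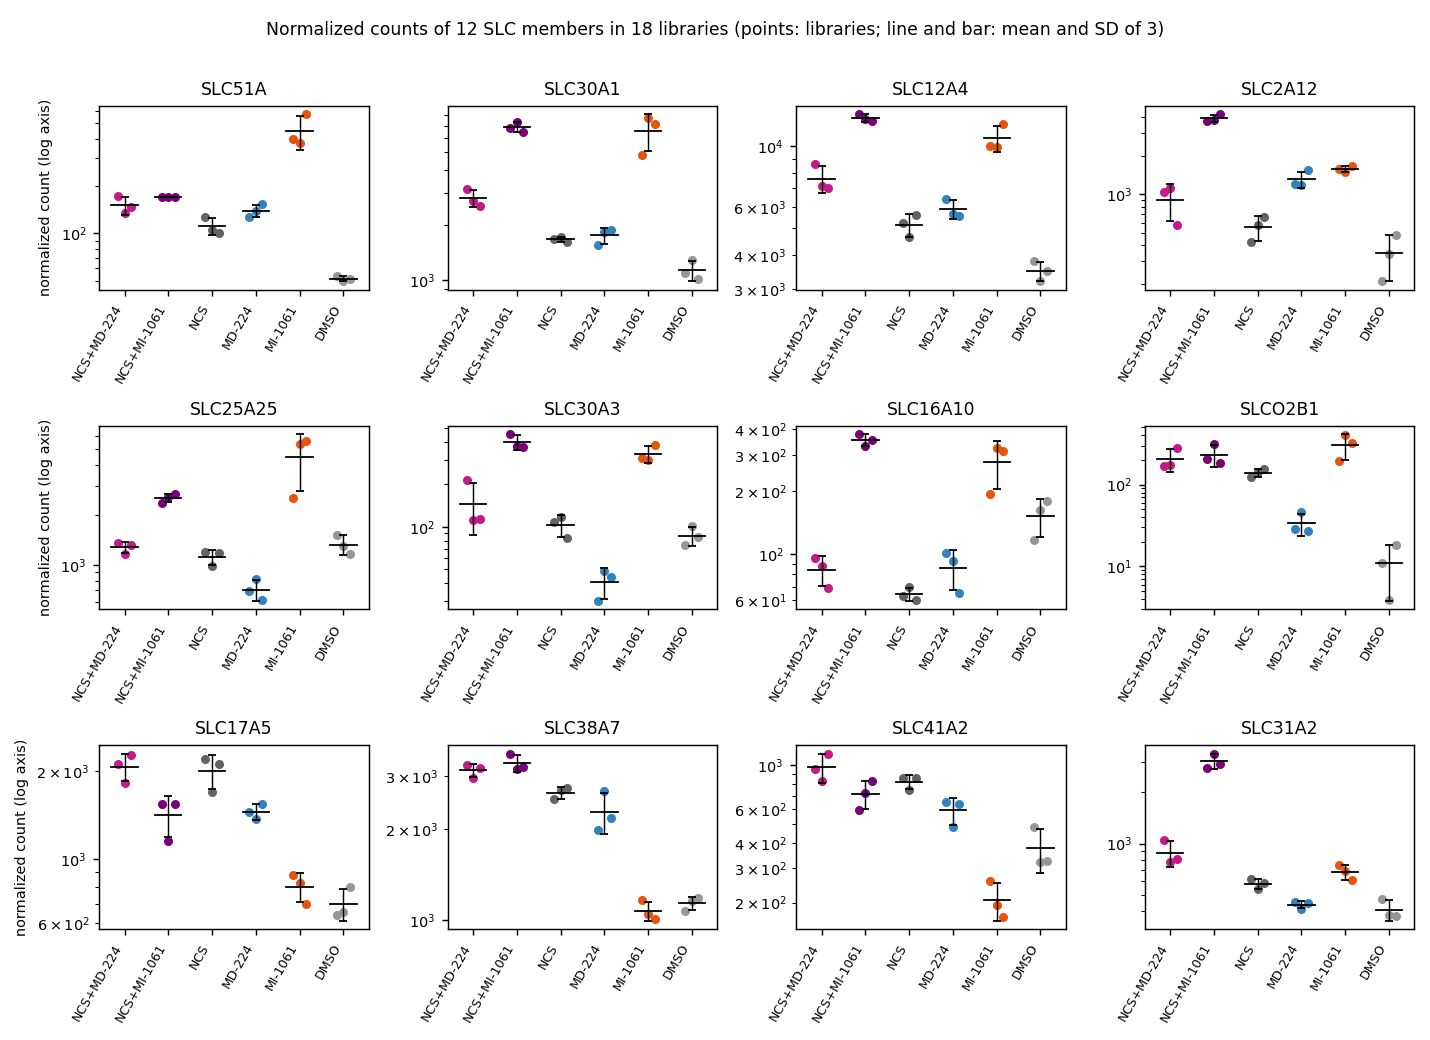
Normalized counts (log axis) of 12 SLC members in each of the 18 libraries, 1 point per library, with a line at the group mean and an error bar of its SD. SLC30A1 and SLC12A4 are highest with MI-1061, while SLC17A5, SLC38A7 and SLC41A2 lie higher with MD-224 than with MI-1061 without NCS.

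Of the 8 metal transporters, 5 rose with NCS, against 54% of listed genes (0 under TMM scaling). With MI-1061 5 rose, against 67.6%, and 2 fell, against 4.46% (3 and 4 under TMM scaling). With MD-224 4 rose, against 39.9%, and 1 fell, against 2.8% (1 and 1 under TMM scaling). After NCS, 5 rose with MI-1061, against 70.5% (3 rose and 2 fell under TMM scaling), and 3 with MD-224, against 15.1% (0 under TMM scaling). SLC30A1 (chr1:211571568-211579161), whose promoter is printed above, exports zinc from the cytosol. It had 3147, 2711 and 2559.7 with NCS and MD-224 and 6789, 7324 and 6476 with NCS and MI-1061, against 1672, 1719.8 and 1616 with NCS. Where NCS was absent it had 1557, 1834 and 1886 with MD-224 and 4857, 7724 and 7161 with MI-1061, against 1089.9, 1293 and 1013 with DMSO. Every library with MI-1061 was above every library without it. SLC30A1 rose with MI-1061 (log2 fold change 2.52, SE 0.15, limma adjusted p = 4.48e-10), with MI-1061 after NCS (2.04, SE 0.15, limma adjusted p = 4.69e-09) and with MD-224 after NCS (0.74, SE 0.15, limma adjusted p = 0.00323, and 0.42 with limma adjusted p = 0.121 under TMM scaling).

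SLC30A3 (chr2:27253684-27275817), which loads zinc into synaptic vesicles, went in opposite directions with the compounds. Its counts were 215, 111 and 113 with NCS and MD-224 and 457, 372 and 371 with NCS and MI-1061, against 109, 118 and 83.1 with NCS. Without NCS they were 29.8, 48.9 and 43.97 with MD-224 and 307, 299 and 379.6 with MI-1061, against 74.4, 101 and 84.9 with DMSO, with the groups apart in the order MI-1061, DMSO, MD-224. It rose with MI-1061 (log2 fold change 1.91, SE 0.27, limma adjusted p = 8.09e-06), fell with MD-224 (-1.08, SE 0.27, limma adjusted p = 0.00456) and rose with MI-1061 after NCS (1.95, SE 0.27, limma adjusted p = 6.54e-06). SLC31A2 (chr9:113151007-113164140), a copper transporter of endosomes and lysosomes, had 1055, 776 and 807 with NCS and MD-224 and 2792, 3372 and 2947 with NCS and MI-1061, against 618, 541 and 588 with NCS. Without NCS it had 456, 416 and 446 with MD-224 and 746, 687 and 612 with MI-1061, against 475, 379 and 374 with DMSO. With NCS and MI-1061 the lowest library was at 2792, and no library of another group passed 1055. SLC31A2 rose with MI-1061 after NCS (log2 fold change 2.38, SE 0.15, limma adjusted p = 7.54e-10), with MI-1061 alone (0.74, SE 0.15, limma adjusted p = 0.000332, and -0.25 with limma adjusted p = 0.133 under TMM scaling) and with MD-224 after NCS (0.58, SE 0.15, limma adjusted p = 0.0156, and 0.25 with limma adjusted p = 0.465 under TMM scaling). The last call was lost without NCS replicate 2 (limma adjusted p = 0.0692) and without NCS and MD-224 replicate 1 (0.121). Of its exon bases 63.1% overlap FKBP15 on the opposite strand, and whether counting used strand is not given in the sources used here, so its values are uncertain.

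SLC40A1 (chr2:189560590-189580786), ferroportin, the iron exporter, had 284, 427 and 250.1 with NCS and MD-224 and 595, 687 and 657 with NCS and MI-1061, against 228, 250.3 and 275 with NCS. In cells not given NCS it had 312, 281 and 302 with MD-224 and 136, 174 and 129 with MI-1061, against 188, 246 and 339.7 with DMSO. MI-1061 gave the lowest values without NCS and the highest after it. It fell with MI-1061 (log2 fold change -0.78, SE 0.23, limma adjusted p = 0.00546) and rose with MI-1061 after NCS (1.36, SE 0.23, limma adjusted p = 4.64e-05, and 0.37 with limma adjusted p = 0.21 under TMM scaling). SLC41A2 (chr12:104801801-104958746), a magnesium transporter, had 956, 827 and 1145 with NCS and MD-224 and 595, 724 and 828 with NCS and MI-1061, against 861, 747 and 864 with NCS. Without NCS its counts were 649, 482 and 636 with MD-224 and 257, 194 and 169 with MI-1061, against 487, 320.0 and 326 with DMSO. The MI-1061 libraries lay below all others, and those with MD-224 overlapped DMSO by 1 library. SLC41A2 fell with MI-1061 (log2 fold change -0.86, SE 0.21, limma adjusted p = 0.00147), rose with NCS (1.15, SE 0.21, limma adjusted p = 0.000295, and 0.54 with limma adjusted p = 0.0735 under TMM scaling) and rose with MD-224 (0.65, SE 0.21, limma adjusted p = 0.0195, and 0.16 with limma adjusted p = 0.62 under TMM scaling). The MD-224 call was lost without DMSO replicate 2 (limma adjusted p = 0.0699), DMSO replicate 3 (0.0719), MD-224 replicate 1 (0.0634) or MD-224 replicate 3 (0.0667), with edgeR (adjusted p = 0.0878) and in limma on those groups alone (0.068).

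SLC11A1, a divalent metal transporter of phagosomes, averaged 18.99 ± 10.7 with MD-224 and 130.1 ± 66.4 with MI-1061, against 10.2 ± 7.34 with DMSO (SD, n = 3) and rose with MI-1061 (log2 fold change 3.59, SE 0.59, limma adjusted p = 3.73e-05). SLC39A11, a zinc importer, averaged 2416 ± 80.6 with NCS and MD-224 and 3899 ± 151 with NCS and MI-1061, against 1923 ± 109 with NCS, a rise with MD-224 of small size (log2 fold change 0.33, SE 0.11, limma adjusted p = 0.0482, and 0.00 with limma adjusted p = 0.995 under TMM scaling). That call was lost without any 1 of the 6 libraries, with limma adjusted p between 0.0731 and 0.16, and in limma on those groups alone (0.0622). SLC39A13, a zinc transporter of the Golgi, averaged 3094 ± 373 with MD-224 and 2026 ± 691 with MI-1061, against 1707 ± 370.0 with DMSO.

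Of the 5 amino acid transporters, 4 rose with NCS, against 54% of listed genes (2 under TMM scaling), 4 with MD-224, against 39.9% (2), and 2 with MI-1061, against 67.6% (1 rose and 2 fell under TMM scaling). SLC38A10 (chr17:81244811-81295307), a glutamine and amino acid transporter with the highest mean of all members, had 13531, 12504 and 14034 with NCS and MD-224 and 15068, 14546 and 16605 with NCS and MI-1061, against 11749, 12466 and 12871 with NCS. Its counts without NCS were 11397, 13397 and 13237 with MD-224 and 13684, 15819 and 17012 with MI-1061, against 9019, 8371 and 8919 with DMSO. The DMSO libraries were the lowest, at 9019 or less. SLC38A10 rose with MI-1061 (log2 fold change 0.82, SE 0.10, limma adjusted p = 1.7e-06, and -0.18 with limma adjusted p = 0.139 under TMM scaling) and with NCS (0.49, SE 0.10, limma adjusted p = 0.000729, and -0.12 with limma adjusted p = 0.403 under TMM scaling). SLC38A7 (chr16:58665109-58684770), which exports glutamine from lysosomes, had 3282, 2971 and 3189 with NCS and MD-224 and 3567, 3164 and 3227 with NCS and MI-1061, against 2515, 2698 and 2741 with NCS. Without NCS the counts were 1988, 2692 and 2190.3 with MD-224 and 1164, 1049 and 1013 with MI-1061, against 1074, 1155 and 1183 with DMSO. It rose with NCS (log2 fold change 1.22, SE 0.12, limma adjusted p = 7.17e-07) and with MD-224 (1.00, SE 0.12, limma adjusted p = 8.15e-06), while MI-1061 overlapped DMSO (log2 fold change -0.08, SE 0.12, limma adjusted p = 0.548), a value that became a fall under TMM scaling (-1.07, limma adjusted p = 1.06e-06).

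SLC7A6 (chr16:68264526-68301819), an exchanger of arginine for glutamine, had 4453, 3431 and 3484 with NCS and MD-224 and 6908, 6141 and 6003 with NCS and MI-1061, against 3795, 2875 and 3249 with NCS. In the absence of NCS it had 3382, 1995 and 2325 with MD-224 and 3194, 2587 and 2349 with MI-1061, against 3933, 1716 and 2558 with DMSO, with all 3 groups overlapping. SLC7A6 rose with MI-1061 after NCS (log2 fold change 0.95, SE 0.24, limma adjusted p = 0.00204, and -0.05 with limma adjusted p = 0.887 under TMM scaling), and 55.6% of its exon bases overlap SLC7A6OS and other genes. SLC7A8 (chr14:23125295-23183660), a neutral amino acid exchanger that needs a heavy chain partner, had 2553, 2844 and 1269 with NCS and MD-224 and 3109.8, 2758 and 1949.8 with NCS and MI-1061, against 1682, 2369.6 and 1357 with NCS. Where NCS was absent it had 638, 1478 and 785 with MD-224 and 413, 1176 and 639 with MI-1061, against 352, 710.2 and 284 with DMSO. Replicates varied widely, yet every NCS library was above every DMSO library, and SLC7A8 rose with NCS (log2 fold change 2.08, SE 0.42, limma adjusted p = 0.000614). SLC1A2 (chr11:35251205-35420507), which clears glutamate in astrocytes, had 80.1, 99.4 and 72.9 with NCS and MD-224 and 106, 51.4 and 77.3 with NCS and MI-1061, against 82.4, 69.5 and 56.99 with NCS. Without NCS its counts were 135, 92.1 and 103 with MD-224 and 269, 235 and 151 with MI-1061, against 24.1, 15.4 and 40.9 with DMSO. After NCS the 3 groups overlapped, and without NCS they were apart in the order MI-1061, MD-224, DMSO. It rose with MI-1061 (log2 fold change 3.04, SE 0.35, limma adjusted p = 7.21e-07), with MD-224 (2.09, SE 0.35, limma adjusted p = 0.0002) and with NCS (1.44, SE 0.35, limma adjusted p = 0.00281, and 0.84 with limma adjusted p = 0.0837 under TMM scaling).

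SLC15A1, the peptide transporter of the gut, had 60.1, 34.9 and 46.6 with NCS and MD-224 and 129.7, 109.9 and 98.6 with NCS and MI-1061, against 37.3, 24.5 and 46.7 with NCS. Without NCS it had 16.1, 15.5 and 9.42 with MD-224 and 123, 151 and 157 with MI-1061, against 2.19, 11.5 and 15.3 with DMSO. With MI-1061 the lowest library of either set was at 98.6, and no other library passed 60.1. SLC15A1 rose with MI-1061 (log2 fold change 4.05, SE 0.47, limma adjusted p = 7.55e-07), with MI-1061 after NCS (1.65, SE 0.47, limma adjusted p = 0.00473, and 0.67 with limma adjusted p = 0.288 under TMM scaling) and with NCS (2.05, SE 0.47, limma adjusted p = 0.0017). Without DMSO replicate 1, the lowest library, these were 3.33 with MI-1061 and 1.33 with NCS, both still called. SLC15A2, its kidney relative, averaged 38.02 ± 5.63 with NCS and MD-224 and 71.4 ± 15.7 with NCS and MI-1061, against 36.4 ± 16.3 with NCS, and 15.7 ± 5.72 with MD-224 and 21.4 ± 3.30 with MI-1061, against 32.3 ± 9.67 with DMSO. SLC15A2 was 1 of the 4 members that fell with MD-224 (log2 fold change -1.01, SE 0.36, limma adjusted p = 0.0313). The call was lost with edgeR (adjusted p = 0.0783), DESeq2 (0.0834) and limma on those groups alone (0.114), and in limma without DMSO replicate 2 (0.117), DMSO replicate 3 (0.0658), MD-224 replicate 2 (0.0661) or MD-224 replicate 3 (0.132). Of the 3 members of the neurotransmitter family, 3 rose with NCS, against 54% of listed genes, and 2 with MI-1061 after NCS, against 70.5% (0 and 1 under TMM scaling). SLC6A17, which fills synaptic vesicles with amino acids, averaged 3712 ± 587 with NCS and MD-224 and 7869 ± 615 with NCS and MI-1061, against 2592 ± 251 with NCS, and rose with MI-1061 after NCS (log2 fold change 1.603, SE 0.23, limma adjusted p = 8.83e-06). SLC6A8, the creatine transporter, averaged 871 ± 40.9 with NCS and MD-224 and 1378 ± 397 with NCS and MI-1061, against 854 ± 74.2 with NCS. SLC6A12, which takes up betaine and GABA, averaged 54.6 ± 50.6 with MD-224 and 81.2 ± 14.4 with MI-1061, against 20.5 ± 7.33 with DMSO.

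The 7 sugar transporters gave 5 rises with NCS, against 54% of listed genes (1 rise and 1 fall under TMM scaling), and 4 with MI-1061, against 67.6% (2 and 3). They gave 2 with MD-224, against 39.9% (2 and 2), and 4 with MI-1061 after NCS, against 70.5% (3 and 2). SLC2A12 (chr6:133987581-134052624), the glucose transporter whose promoter is printed above, had 1035, 1109 and 576 with NCS and MD-224 and 3761, 3823 and 4225 with NCS and MI-1061, against 422, 576 and 663 with NCS. In cells not given NCS it had 1209, 1183 and 1533 with MD-224 and 1561, 1498 and 1657 with MI-1061, against 210.1, 344 and 481 with DMSO. MD-224 and MI-1061 stood close together without NCS, all above DMSO, whereas after NCS the lowest MI-1061 library was at 3761 and the highest MD-224 library at 1109, and MD-224 overlapped NCS. SLC2A12 rose with MI-1061 after NCS (log2 fold change 2.85, SE 0.27, limma adjusted p = 5.91e-08), with MI-1061 alone (2.26, SE 0.27, limma adjusted p = 9.34e-07) and with MD-224 (1.99, SE 0.27, limma adjusted p = 2.68e-05). Of its exon bases 38.9% overlap TBPL1 on the opposite strand. SLC5A2, the sodium-glucose cotransporter of the kidney tubule, had 42.2, 51.2 and 39.5 with NCS and MD-224 and 47.6, 43.5 and 46.6 with NCS and MI-1061, against 47.1, 75.8 and 43.04 with NCS. Its counts without NCS were 27.5, 47.01 and 23.03 with MD-224 and 92.6, 33.6 and 78.4 with MI-1061, against 6.57, 7.69 and 9.21 with DMSO. DMSO stood at 9.21 or less, below every library of the other groups. It rose with MI-1061 (log2 fold change 2.86, SE 0.38, limma adjusted p = 3.03e-06), NCS (2.64, SE 0.38, limma adjusted p = 3.13e-05) and MD-224 (1.87, SE 0.38, limma adjusted p = 0.000835), and 40.7% of its exon bases overlap C16orf58 and other genes.

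SLC2A9, a urate transporter, averaged 21.4 ± 11.6 with NCS and MD-224 and 172 ± 97.8 with NCS and MI-1061, against 16.4 ± 10.4 with NCS, and rose with MI-1061 after NCS (log2 fold change 3.33, SE 0.74, limma adjusted p = 0.00072). SLC2A8, a glucose transporter of intracellular membranes, averaged 722 ± 84.3 with NCS and MD-224 and 1650.0 ± 204 with NCS and MI-1061, against 533 ± 43.7 with NCS, and rose likewise (log2 fold change 1.62, SE 0.23, limma adjusted p = 7.55e-06). The mean of SLC2A8 with DMSO was 631, above that with NCS, so the sign of its rise was set by the selection. SLC37A1 and SLC37A2, sugar phosphate exchangers of the endoplasmic reticulum, had means that differed in order. SLC37A1 averaged 771 ± 84.7 with MD-224 and 451 ± 128 with MI-1061, against 568 ± 150.4 with DMSO. SLC37A2 averaged 85.1 ± 55.6 with MD-224 and 219.6 ± 78.96 with MI-1061, against 90.5 ± 24.2 with DMSO. SLC5A10, with 33.4% of exon bases shared with other genes, averaged 368 ± 89.2 with NCS and MD-224 and 470.3 ± 43.3 with NCS and MI-1061, against 288 ± 18.1 with NCS. Among the 5 nucleotide sugar transporters and their orphan relatives, 3 rose with NCS, against 54% of listed genes, 3 with MD-224, against 39.9%, 3 with MI-1061, against 67.6%, and 4 with MI-1061 after NCS, against 70.5%. Under TMM scaling 2 fell and 1 rose with MI-1061 after NCS, and the falls were 2 with MD-224, 4 with MI-1061 and 2 with NCS. SLC35E1 (chr19:16549837-16572415), an orphan member with no settled substrate, had 8321, 7427 and 7313 with NCS and MD-224 and 11775, 12675 and 11487 with NCS and MI-1061, against 6565, 6778 and 6417 with NCS. Without NCS the counts were 5694, 5487 and 5154 with MD-224 and 6165, 5863 and 4843 with MI-1061, against 4820.4, 4519 and 3831 with DMSO. The NCS and MI-1061 libraries were the highest, and SLC35E1 rose there over NCS (log2 fold change 0.86, SE 0.11, limma adjusted p = 2.46e-06, and -0.13 with limma adjusted p = 0.33 under TMM scaling). SLC35D1, which carries UDP-glucuronic acid into the endoplasmic reticulum, averaged 2218 ± 298 with NCS and MD-224 and 5705 ± 565 with NCS and MI-1061, against 1883 ± 251 with NCS, and rose with MI-1061 after NCS (log2 fold change 1.603, SE 0.16, limma adjusted p = 1.02e-07). Its mean with DMSO was 2162, above that with NCS, so the sign of this rise was set by the selection. SLC35A2, the UDP-galactose transporter of the Golgi, averaged 2506 ± 207 with MD-224 and 1722 ± 469.6 with MI-1061, against 1759 ± 205 with DMSO, and SLC35C2 averaged 3971 ± 156 with NCS and MD-224 and 4661 ± 375 with NCS and MI-1061, against 3321 ± 230.1 with NCS.

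SLC35E3 (chr12:68746176-68781468), another orphan, lies 26703 bases from MDM2 (chr12:68808172-68850686), the gene that SJSA-1 carries in extra copies. It averaged 1044 ± 92.2 with NCS and MD-224 and 1810.0 ± 104 with NCS and MI-1061, against 734 ± 85.1 with NCS. Without NCS it averaged 792 ± 101 with MD-224 and 1427 ± 292 with MI-1061, against 829 ± 68.1 with DMSO. SLC35E3 rose with MI-1061 (log2 fold change 0.77, SE 0.16, limma adjusted p = 0.000325, and -0.23 with limma adjusted p = 0.173 under TMM scaling), with MI-1061 after NCS (1.31, SE 0.16, limma adjusted p = 1.17e-06, and 0.31 with limma adjusted p = 0.0846 under TMM scaling) and with MD-224 after NCS (0.51, SE 0.16, limma adjusted p = 0.0359, and 0.18 with limma adjusted p = 0.648 under TMM scaling). The MD-224 call was lost without NCS replicate 1 (limma adjusted p = 0.113), NCS replicate 3 (0.136), or replicate 1 or 2 with NCS and MD-224 (0.127 and 0.11). The mean of SLC35E3 with NCS was below that with DMSO, so the selection set the sign of its rise with MI-1061 after NCS. Whether copy number bears on its level was not tested.

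The monocarboxylate and sulfate group held 3 members. SLC16A10 (chr6:111087503-111231194), which carries aromatic amino acids, had 95.97, 88.3 and 68.9 with NCS and MD-224 and 377, 329 and 355 with NCS and MI-1061, against 62.8, 69.5 and 60.6 with NCS. In the absence of NCS it had 101, 92.7 and 64.9 with MD-224 and 196, 323 and 314 with MI-1061, against 117, 162 and 179 with DMSO. MI-1061 gave the highest values in both sets, and MD-224 and NCS gave lower values than DMSO. It was the only member that fell with NCS (log2 fold change -1.22, SE 0.25, limma adjusted p = 0.000774), it rose with MI-1061 (0.84, SE 0.25, limma adjusted p = 0.00642, and -0.15 with limma adjusted p = 0.616 under TMM scaling) and with MI-1061 after NCS (2.44, SE 0.25, limma adjusted p = 1.79e-07), and it fell with MD-224 (-0.82, SE 0.25, limma adjusted p = 0.0152). The fall with MD-224 was not called without DMSO replicate 3 (limma adjusted p = 0.0621) or MD-224 replicate 3 (0.0796), with edgeR (adjusted p = 0.0676) or in limma on those groups alone (0.0735). The mean of SLC16A10 was 64.3 with NCS and 153 with DMSO. The sign and much of the size of its rise with MI-1061 after NCS were thus set by the selection of listed genes. SLC16A12, whose promoter holds 1 half-site, averaged 195 ± 38.6 with NCS and MD-224 and 412 ± 38.5 with NCS and MI-1061, against 130.1 ± 11.9 with NCS, and rose with MI-1061 after NCS (log2 fold change 1.66, SE 0.27, limma adjusted p = 3.25e-05). SLC13A4 averaged 54.6 ± 15.4 with MD-224 and 76.98 ± 27.7 with MI-1061, against 44.1 ± 12.7 with DMSO.

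Mitochondrial carriers numbered 6, and 3 rose with NCS, against 54% of listed genes. With MI-1061 4 rose, against 67.6%, and 1 fell, against 4.46%. With MD-224 2 rose, against 39.9%, and 1 fell, against 2.8%, and 4 rose with MI-1061 after NCS, against 70.5%. Under TMM scaling 0 rose and 3 fell with NCS, 3 and 3 with MI-1061, 0 and 3 with MD-224, and 1 and 1 with MI-1061 after NCS. SLC25A25 (chr9:128068232-128109245), whose promoter with a pair of separate half-sites is printed above, had 1351, 1164 and 1311 with NCS and MD-224 and 2359, 2569 and 2655 with NCS and MI-1061, against 1186, 981 and 1174 with NCS. Where NCS was absent it had 692, 816 and 614 with MD-224 and 2516, 5327 and 5530.2 with MI-1061, against 1518, 1294 and 1153 with DMSO. The groups without NCS were apart in the order MI-1061, DMSO, MD-224. SLC25A25 rose with MI-1061 (log2 fold change 1.68, SE 0.22, limma adjusted p = 3.73e-06), fell with MD-224 (-0.90, SE 0.22, limma adjusted p = 0.00408) and rose with MI-1061 after NCS (1.19, SE 0.22, limma adjusted p = 0.000153, and 0.19 with limma adjusted p = 0.482 under TMM scaling). SLC25A45 averaged 200.0 ± 40.8 with MD-224 and 644 ± 139.7 with MI-1061, against 136 ± 32.1 with DMSO, and rose with MI-1061 (log2 fold change 2.24, SE 0.22, limma adjusted p = 1.03e-07). SLC25A16 averaged 740.2 ± 105 with NCS and MD-224 and 1398 ± 103 with NCS and MI-1061, against 616 ± 52.3 with NCS, and 577 ± 10.5 with MD-224 and 543 ± 126 with MI-1061, against 709 ± 103 with DMSO. It rose with MI-1061 after NCS (log2 fold change 1.18, SE 0.17, limma adjusted p = 7.5e-06, and 0.19 with limma adjusted p = 0.382 under TMM scaling) and fell with MI-1061 alone (-0.40, SE 0.17, limma adjusted p = 0.0413). The fall was lost with edgeR (adjusted p = 0.139), DESeq2 (0.102) and limma on those groups alone (0.16), and without DMSO replicate 1 (0.17), MI-1061 replicate 2 (0.106) or MI-1061 replicate 3 (0.191). Means with NCS were below those with DMSO for SLC25A16 (616 against 709) and SLC25A25 (1114 against 1321). The sign and much of the size of their rises with MI-1061 after NCS were thus set by the selection. SLC25A15, the ornithine carrier of the urea cycle, averaged 1111 ± 69.3 with NCS and MD-224 and 2289.7 ± 288 with NCS and MI-1061, against 914 ± 72.3 with NCS. SLC25A18, a glutamate carrier, averaged 51.2 ± 3.99 with MD-224 and 112 ± 37.2 with MI-1061, against 32.9 ± 4.81 with DMSO. SLC25A20, which brings acylcarnitine in for fatty acid oxidation, averaged 1132 ± 66.03 with MD-224 and 579 ± 215 with MI-1061, against 741 ± 132 with DMSO.

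SLC48A1 (chr12:47753934-47782751), a heme transporter of endosomes and lysosomes, had 582, 609.6 and 409 with NCS and MD-224 and 1312, 1644 and 1709 with NCS and MI-1061, against 333, 384 and 359 with NCS. Without NCS it had 382, 574 and 407 with MD-224 and 325, 493 and 281 with MI-1061, against 286, 382 and 344 with DMSO. The libraries with NCS and MI-1061 stood apart, at 1312 or more, against 609.6 or less in every other library. SLC48A1 rose with MI-1061 after NCS (log2 fold change 2.106, SE 0.23, limma adjusted p = 2.77e-07). SLC33A1, which moves acetyl-CoA into the endoplasmic reticulum, averaged 2909 ± 364 with MD-224 and 1950.0 ± 98.2 with MI-1061, against 2165 ± 431 with DMSO.

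Of the 8 organic ion transporters, 7 rose with NCS, against 54% of listed genes (3 under TMM scaling). With MI-1061 4 rose, against 67.6%, and 1 fell, against 4.46% (3 and 1 under TMM scaling), and 3 rose with MD-224, against 39.9% (3). SLCO2B1 (chr11:75151107-75206549), which takes up steroid conjugates and drugs, had 169.8, 173 and 281 with NCS and MD-224 and 206, 312 and 183 with NCS and MI-1061, against 125, 141 and 155 with NCS. In cells not given NCS it had 28.7, 45.7 and 27.2 with MD-224 and 194, 410.1 and 323 with MI-1061, against 10.9, 3.84 and 18.4 with DMSO. The DMSO libraries were at 18.4 or less, those with MD-224 alone at 27.2 to 45.7, and every library with NCS or MI-1061 at 125 or more. SLCO2B1 had the largest rise of the members with both NCS (log2 fold change 3.76, SE 0.42, limma adjusted p = 3.26e-06) and MI-1061 (4.83, SE 0.42, limma adjusted p = 2.45e-08), and it rose with MD-224 (1.71, SE 0.42, limma adjusted p = 0.00392), a call lost in limma on those groups alone (adjusted p = 0.0546). SLC51A (chr3:196216534-196233427), a subunit of the bile acid and steroid exporter, had 172, 134 and 147 with NCS and MD-224 and 170.2, 172 and 171 with NCS and MI-1061, against 127, 105 and 101 with NCS. Its counts without NCS were 127, 139 and 153 with MD-224 and 396, 378 and 573 with MI-1061, against 53.6, 49.97 and 51.2 with DMSO. MI-1061 alone gave the highest values, all at 378 or more. SLC51A rose with MI-1061 (log2 fold change 3.07, SE 0.21, limma adjusted p = 1.18e-09), MD-224 (1.42, SE 0.21, limma adjusted p = 5.26e-05) and NCS (1.08, SE 0.21, limma adjusted p = 0.00038, and 0.48 with limma adjusted p = 0.0853 under TMM scaling).

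SLC22A17 (chr14:23346311-23352887), a receptor for lipocalin-2, had 1989, 1643 and 1752 with NCS and MD-224 and 1909, 1812 and 1887 with NCS and MI-1061, against 1696, 1759 and 1731 with NCS. Without NCS the counts were 1129, 1453 and 1305 with MD-224 and 927, 790.3 and 821 with MI-1061, against 1041, 1123 and 997 with DMSO. The MI-1061 libraries lay just below DMSO (log2 fold change -0.32, SE 0.12, limma adjusted p = 0.0272). That fall was lost without DMSO replicate 2 (limma adjusted p = 0.0858), MI-1061 replicate 2 (0.0854) or MI-1061 replicate 3 (0.0673), with edgeR (adjusted p = 0.117), DESeq2 (0.0759) and limma on those groups alone (0.144). SLC22A18 (chr11:2899691-2925246), an organic cation transporter-like protein, had 158, 165 and 212 with NCS and MD-224 and 96.4, 109.9 and 123 with NCS and MI-1061, against 136, 138 and 170.4 with NCS. In the absence of NCS it had 137, 252 and 193 with MD-224 and 84.9, 70.8 and 83.00 with MI-1061, against 40.5, 73.04 and 56.3 with DMSO. MD-224 stood above MI-1061 in both sets. SLC22A18 rose with MD-224 (log2 fold change 1.75, SE 0.26, limma adjusted p = 7.8e-05) and with NCS (1.41, SE 0.26, limma adjusted p = 0.000351). The pseudogene SLC22A20 averaged 19.5 ± 9.66 with MD-224 and 84.5 ± 35.6 with MI-1061, against 9.95 ± 6.60 with DMSO, and rose with MI-1061 (log2 fold change 3.05, SE 0.47, limma adjusted p = 1.92e-05). Whether reads of related SLC22 genes were counted to it was not tested. SLC22A4, the ergothioneine transporter, averaged 501 ± 129 with NCS and MD-224 and 494 ± 86.2 with NCS and MI-1061, against 311 ± 24.1 with NCS. SLCO1A2, the member with the lowest mean, averaged 11.1 ± 5.82 with NCS and MD-224 and 18.4 ± 0.860 with NCS and MI-1061, against 21.8 ± 5.05 with NCS.

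SLC27A2 (chr15:50182196-50236385), a fatty acid transporter and acyl-CoA synthetase, had 67.5, 72.7 and 38.5 with NCS and MD-224 and 224, 281 and 224 with NCS and MI-1061, against 48.1, 74.2 and 67.3 with NCS. Where NCS was absent it had 48.2, 72.8 and 46.1 with MD-224 and 34.7, 136 and 35.4 with MI-1061, against 125, 109 and 79.8 with DMSO, where MI-1061 replicate 2 stood apart from its group. SLC27A2 rose with MI-1061 after NCS (log2 fold change 1.94, SE 0.42, limma adjusted p = 0.000605, and 0.95 with limma adjusted p = 0.0649 under TMM scaling), and 19.9% of its exon bases overlap ATP8B4. SLC44A5, a choline transporter-like protein, had 97.02, 66.7 and 74.9 with NCS and MD-224 and 134, 77.5 and 87.96 with NCS and MI-1061, against 145, 62.4 and 155 with NCS. Without NCS it had 115, 64.4 and 116 with MD-224 and 60.5, 46.8 and 79.9 with MI-1061, against 43.8, 34.6 and 46.04 with DMSO. Without NCS the groups with a compound lay above DMSO, and its NCS libraries spread from 62.4 to 155. SLC44A5 rose with MD-224 (log2 fold change 1.19, SE 0.36, limma adjusted p = 0.0142, and 0.71 with limma adjusted p = 0.174 under TMM scaling) and with NCS (1.42, SE 0.36, limma adjusted p = 0.00355, and 0.82 with limma adjusted p = 0.0969 under TMM scaling), and the MD-224 call was lost without MD-224 replicate 3 (limma adjusted p = 0.057). SLC28A3, which concentrates nucleosides and nucleoside drugs, had 88.6, 32.6 and 101 with NCS and MD-224 and 276, 248 and 227 with NCS and MI-1061, against 66.7, 39.5 and 43.6 with NCS. In cells not given NCS it had 13.8, 14.2 and 2.09 with MD-224 and 84.9, 31.2 and 46.1 with MI-1061, against 30.6, 5.77 and 10.2 with DMSO. The libraries with NCS and MI-1061 stood apart, at 227 or more. SLC28A3 rose with MI-1061 after NCS (log2 fold change 2.33, SE 0.63, limma adjusted p = 0.00321, and 1.35 with limma adjusted p = 0.101 under TMM scaling), with NCS (1.89, SE 0.63, limma adjusted p = 0.018, and 1.33 with limma adjusted p = 0.129 under TMM scaling) and with MI-1061 (1.92, SE 0.63, limma adjusted p = 0.0112, and 0.99 with limma adjusted p = 0.194 under TMM scaling). The NCS call was lost without DMSO replicate 2 (limma adjusted p = 0.0889), DMSO replicate 3 (0.0537) or NCS replicate 1 (0.0653), and was 2.51 without DMSO replicate 1. The MI-1061 call was lost without DMSO replicate 2 (0.0653) or MI-1061 replicate 1 (0.0572), and was 2.54 without DMSO replicate 1.

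SLC46A1, the folate transporter, averaged 356 ± 30.95 with NCS and MD-224 and 1139.9 ± 113 with NCS and MI-1061, against 346 ± 29.6 with NCS, and rose with MI-1061 after NCS (log2 fold change 1.71, SE 0.18, limma adjusted p = 1.63e-07), and 61.5% of its exon bases overlap SARM1 and other genes. SLC29A3, a nucleoside transporter of lysosomes, averaged 398 ± 52.9 with MD-224 and 274 ± 88.6 with MI-1061, against 247 ± 47.8 with DMSO. SLC29A4, a monoamine transporter, averaged 302 ± 112 with NCS and MD-224 and 714 ± 86.2 with NCS and MI-1061, against 296 ± 31.1 with NCS. SLC23A3, with 47.9% of exon bases shared with AC068946.1, averaged 51.4 ± 12.3 with NCS and MD-224 and 57.3 ± 21.96 with NCS and MI-1061, against 48.5 ± 18.4 with NCS. SLC17A5 (chr6:73593379-73653992), which exports sialic acid from lysosomes, had 2111, 1829 and 2274 with NCS and MD-224 and 1547, 1154 and 1546 with NCS and MI-1061, against 2199.8, 1698 and 2120.0 with NCS. Its counts without NCS were 1445, 1365 and 1544 with MD-224 and 878, 826 and 701 with MI-1061, against 643, 655 and 798 with DMSO. MI-1061 gave the lower values of the compounds in both sets. SLC17A5 rose with NCS (log2 fold change 1.52, SE 0.15, limma adjusted p = 1.15e-06) and MD-224 (1.06, SE 0.15, limma adjusted p = 5.94e-05), and it was the only member that fell with MI-1061 after NCS (-0.51, SE 0.15, limma adjusted p = 0.00767), a call lost without NCS and MI-1061 replicate 2 (limma adjusted p = 0.0547). SLC34A3, the sodium-phosphate cotransporter of the kidney, had 17.9, 16.3 and 34.4 with NCS and MD-224 and 13.1, 11.9 and 31.99 with NCS and MI-1061, against 13.7, 25.3 and 23.04 with NCS. Without NCS the counts were 9.18, 22.5 and 19.9 with MD-224 and 57.9, 75.6 and 67.6 with MI-1061, against 3.28, 8.65 and 9.21 with DMSO. The libraries with MI-1061 alone were at 57.9 or more and no other passed 34.4, and SLC34A3 rose with MI-1061 (log2 fold change 3.17, SE 0.47, limma adjusted p = 1.26e-05). SLC20A2, a phosphate transporter of most cells on chromosome 8, averaged 3605 ± 401 with NCS and MD-224 and 4150.0 ± 413 with NCS and MI-1061, against 2898 ± 321 with NCS.

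MD-224 and MI-1061 are 1 pair of related compounds, compared at the same dose and time in 2 settings, with p-values adjusted over all listed genes in each. Without NCS, 15 members were higher with MD-224 than with MI-1061, against 12.4% of listed genes, and 31 were lower, against 49.8%. Under TMM scaling 23 were higher and 19 lower (27.6% and 30.6% of listed genes), where the median of listed genes was -0.08 in place of -0.58. After NCS 2 were higher, against 0.748%, and 34 lower, against 54.7%, or 16 each under TMM scaling (11.6% and 17.9% of listed genes), where the median of listed genes was -0.01 in place of -0.67. In 30 members a rise with MI-1061 over DMSO came with a lower value with MD-224 than with MI-1061, both called, against 47% of listed genes (15 members under TMM scaling, against 22.6%). In 11 a rise with MD-224 came with a higher value with MD-224 than with MI-1061, against 8.1% of listed genes (4 under TMM scaling, against 3.55%). These sets share libraries with the comparisons that define them and carry no test of their own. Every listed gene was high with NCS and MI-1061, so the balance of higher and lower calls between the compounds cannot be read apart from that selection.

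The largest differences without NCS among members averaging at least 50 ran in both directions. The peptide transporter SLC15A1 was lower with MD-224 (log2 difference -3.33, 95% interval -4.32 to -2.34, limma adjusted p = 1.2e-05). So was the organic anion carrier SLCO2B1 (log2 difference -3.12, 95% interval -4.01 to -2.24, limma adjusted p = 7.62e-06). The vesicular zinc carrier SLC30A3 was lower (log2 difference -2.996, 95% interval -3.57 to -2.42, limma adjusted p = 1.28e-07). SLC25A25 (log2 difference -2.58, 95% interval -3.05 to -2.11, limma adjusted p = 8.01e-08) and SLC28A3 (log2 difference -2.52, 95% interval -3.84 to -1.19, limma adjusted p = 0.00232) followed. Without MD-224 replicate 3 the SLC28A3 difference was -1.76, still called. The magnesium transporter SLC41A2 was higher with MD-224 (log2 difference 1.51, 95% interval 1.07 to 1.96, limma adjusted p = 1.03e-05). The Golgi exchanger SLC9A7 was higher too (log2 difference 1.37, 95% interval 1.07 to 1.67, limma adjusted p = 4.83e-07). Next came SLC22A18 (log2 difference 1.23, 95% interval 0.68 to 1.79, limma adjusted p = 0.000667) and the lysosomal glutamine exporter SLC38A7 (log2 difference 1.08, 95% interval 0.83 to 1.33, limma adjusted p = 9.3e-07). The iron exporter SLC40A1 was higher by a like amount (log2 difference 1.03, 95% interval 0.55 to 1.52, limma adjusted p = 0.000908). SLC17A5, a lysosomal exporter like SLC38A7, was higher with MD-224 too (log2 difference 0.86, 95% interval 0.53 to 1.19, limma adjusted p = 0.000143), as was the acylcarnitine carrier SLC25A20 (log2 difference 1.03, 95% interval 0.59 to 1.46, limma adjusted p = 0.000411).

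Among abundant members SLC30A1 (log2 difference -1.88, 95% interval -2.21 to -1.55, limma adjusted p = 5e-08) was lower with MD-224 than with MI-1061. The cotransporter SLC12A4 was lower by less (log2 difference -0.86, 95% interval -1.10 to -0.62, limma adjusted p = 6.71e-06). Also lower with it were SLC51A (log2 difference -1.65, 95% interval -2.09 to -1.22, limma adjusted p = 3.16e-06) and SLC8A3 (log2 difference -1.10, 95% interval -1.56 to -0.65, limma adjusted p = 0.000318), and, among members with low counts, SLC26A8 (log2 difference -3.05, 95% interval -4.04 to -2.05, limma adjusted p = 3.23e-05) and SLC11A1 (log2 difference -2.74, 95% interval -3.98 to -1.49, limma adjusted p = 0.000737).

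In 5 members the compounds moved the gene in opposite directions from DMSO without NCS, each response being called, against 2.57% of listed genes. SLC16A10, SLC25A25 and SLC30A3 rose with MI-1061 and fell with MD-224, and SLC41A2 and SLC9A7 fell with MI-1061 and rose with MD-224. Of these 10 responses, the MI-1061 rise of SLC16A10 and the MD-224 rises of SLC41A2 and SLC9A7 were lost under TMM scaling, and the difference between the compounds was called in all 5 under either scaling, SLC16A10 included (log2 difference -1.66, 95% interval -2.19 to -1.13, limma adjusted p = 2.55e-05). Under TMM scaling 5 members were called in opposite directions too, against 2.7% of listed genes, and 2 of them, SLC25A25 and SLC30A3, were among those above. After NCS 0 members were called in opposite directions, against 0.0325% of listed genes. There 7 were called higher with both compounds, against 15.1% of listed genes (1 under TMM scaling, against 3.68%), among them SLC9C1, SLC12A4, SLC30A1, SLC31A2, SLC35E3 and SLC39A11.

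**Figure D4:**
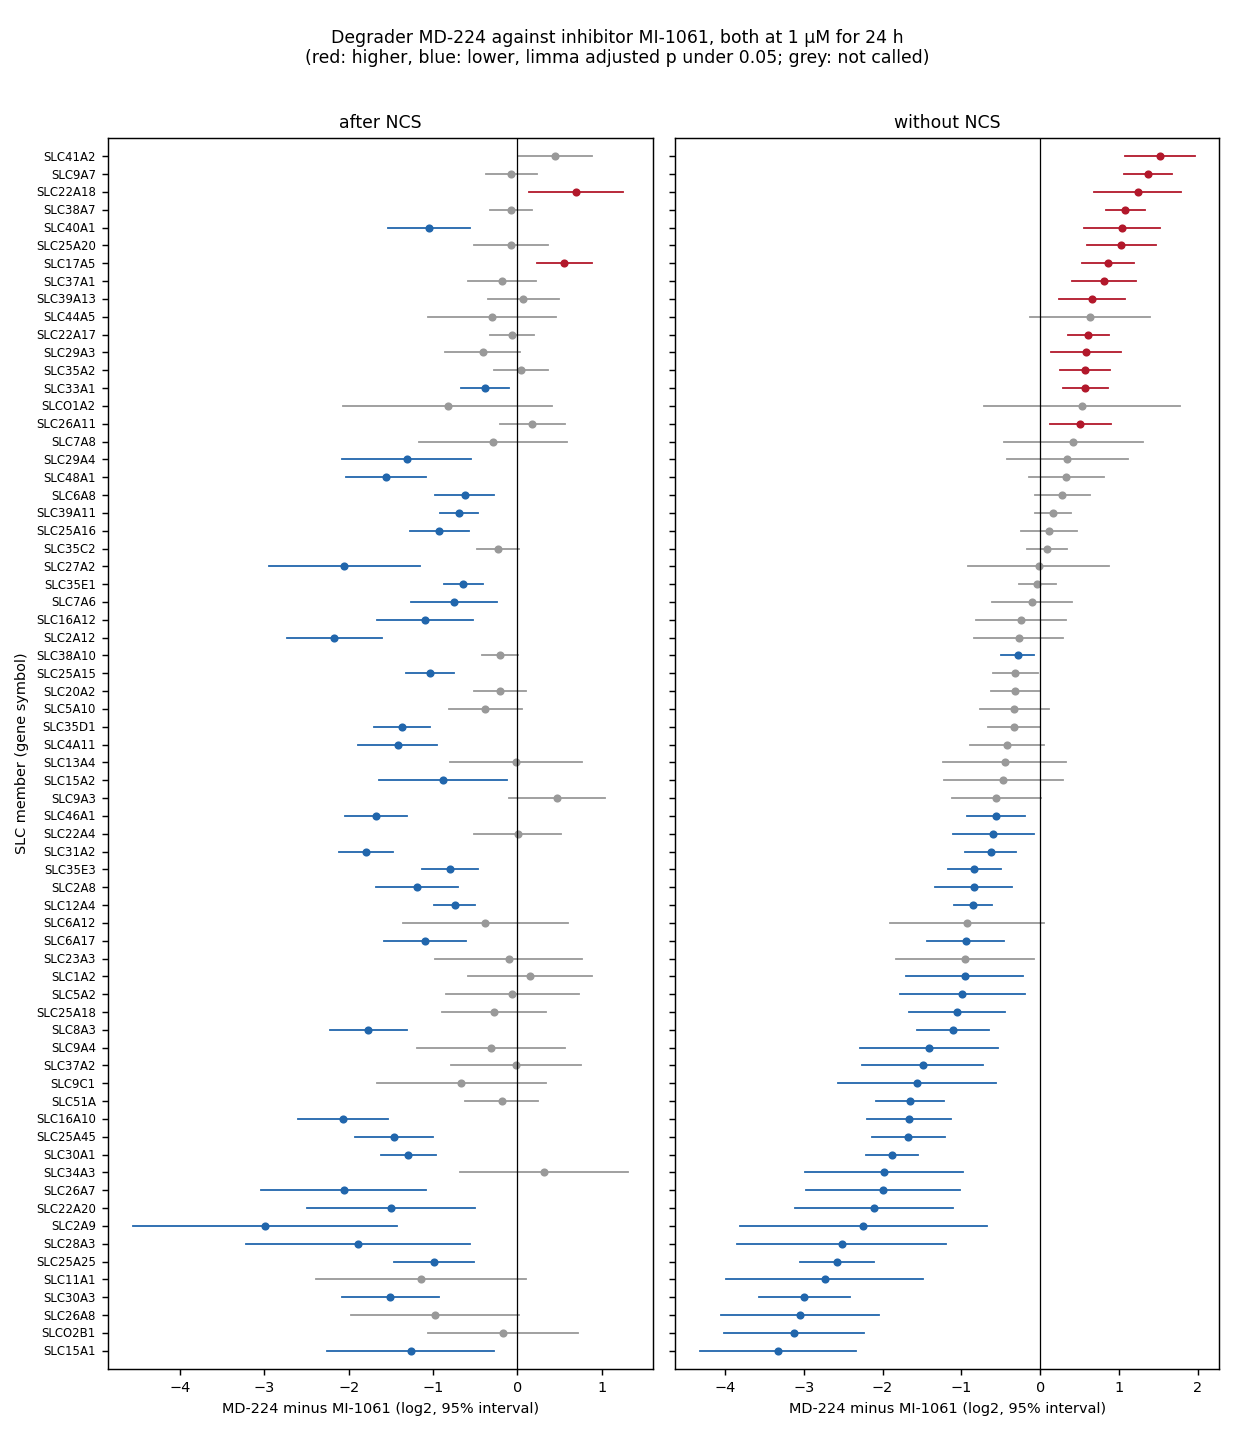
Points give the log2 difference between MD-224 and MI-1061 for each of 68 SLC members, sorted by the difference without NCS, with 95% intervals, after NCS (left) and without NCS (right). Values above 0 are higher with MD-224. Without NCS the difference runs from -3.33 (SLC15A1) to 1.51 (SLC41A2), and after NCS from -2.99 (SLC2A9) to 0.69 (SLC22A18).

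After NCS the member lower with MD-224 by the widest margin was SLC2A9 (log2 difference -2.99, 95% interval -4.56 to -1.43, limma adjusted p = 0.00252), which has low and variable counts. The glucose transporter SLC2A12 came next (log2 difference -2.17, 95% interval -2.74 to -1.61, limma adjusted p = 4.01e-06). It was followed by SLC16A10 (log2 difference -2.07, 95% interval -2.60 to -1.53, limma adjusted p = 3.7e-06) and SLC26A7 (log2 difference -2.06, 95% interval -3.04 to -1.08, limma adjusted p = 0.00122). SLC27A2 (log2 difference -2.05, 95% interval -2.95 to -1.16, limma adjusted p = 0.000585) and SLC28A3 (log2 difference -1.89, 95% interval -3.22 to -0.57, limma adjusted p = 0.0169, and -1.23 with limma adjusted p = 0.163 under TMM scaling) were lower too. The SLC28A3 call was lost without NCS and MD-224 replicate 2 (limma adjusted p = 0.0981).

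Of the 5 metal transporters lower with MD-224 after NCS, 4 are given here. They include the zinc carriers SLC30A1 (log2 difference -1.29, 95% interval -1.62 to -0.97, limma adjusted p = 3.01e-06) and SLC30A3 (log2 difference -1.51, 95% interval -2.08 to -0.93, limma adjusted p = 0.000187). The others are the copper transporter SLC31A2 (log2 difference -1.80, 95% interval -2.12 to -1.48, limma adjusted p = 1.67e-07) and the iron exporter SLC40A1 (log2 difference -1.05, 95% interval -1.53 to -0.56, limma adjusted p = 0.000949, and -0.38 with limma adjusted p = 0.229 under TMM scaling). The sodium-calcium exchanger SLC8A3 was lower too (log2 difference -1.77, 95% interval -2.22 to -1.31, limma adjusted p = 3.87e-06). The heme transporter SLC48A1 (log2 difference -1.55, 95% interval -2.03 to -1.08, limma adjusted p = 2.02e-05) and the folate transporter SLC46A1 (log2 difference -1.67, 95% interval -2.04 to -1.31, limma adjusted p = 8.68e-07) were lower as well. Only SLC22A18 (log2 difference 0.69, 95% interval 0.14 to 1.25, limma adjusted p = 0.034) and SLC17A5 (log2 difference 0.56, 95% interval 0.23 to 0.88, limma adjusted p = 0.00573) were higher with MD-224. The SLC22A18 call was lost without NCS and MD-224 replicate 2 (limma adjusted p = 0.055) or 3 (0.13), or without NCS and MI-1061 replicate 1 (0.108) or 2 (0.0686).

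The difference was not called in 25 members without NCS, against 37.8% of listed genes, and in 35 after NCS, against 44.6%. With a block on the replicate number these were 21 and 29 members. Of 3073 listed genes that block called 448 higher and 1670 lower without NCS, and 34 and 1883 after NCS. The intervals varied in width. SLC35E1 was narrow without NCS (log2 difference -0.04, 95% interval -0.27 to 0.19), whereas SLC2A12 (-0.27, -0.84 to 0.29) and SLC7A8 (0.42, -0.46 to 1.30) had wide ones. After NCS SLC38A7 (-0.08, -0.33 to 0.18) and SLC9A7 (-0.07, -0.37 to 0.23), both higher with MD-224 without NCS, had intervals that span 0, and under TMM scaling both were called higher with MD-224 (0.59 and 0.60, limma adjusted p = 0.00149 and 0.00414).

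The response to a compound after NCS was set against that without NCS by an interaction term. For MI-1061, 18 members had a more positive response after NCS, against 23.5% of listed genes, and 15 a more negative one, against 20.8% (19 and 15 under TMM scaling, against 23.7% and 21.4%). The largest positive value was that of SLC27A2 (interaction 2.82, SE 0.60, limma adjusted p = 0.00117). The iron exporter SLC40A1 (2.15, SE 0.32, limma adjusted p = 6.89e-05) and the heme transporter SLC48A1 (2.02, SE 0.32, limma adjusted p = 0.000102) came next. Without MI-1061 replicate 2 that of SLC27A2 was 3.46. NCS alone left SLC27A2 (63.2 against 104), SLC40A1 (251 against 258) and SLC48A1 (359 against 337) below or near their DMSO means. Such genes could be listed only if they were higher with NCS and MI-1061 than with NCS. MI-1061 alone also left them below or near DMSO, so the positive signs were largely set by the selection. The most negative value was that of SLCO2B1 (-4.13, SE 0.60, limma adjusted p = 4.7e-05). SLC34A3 (-3.39, SE 0.67, limma adjusted p = 0.000661) and SLC5A2 (-3.08, SE 0.53, limma adjusted p = 0.000211) followed it. SLCO2B1 and SLC5A2 were also called higher with NCS alone, and so was SLC34A3 (log2 fold change 1.49, SE 0.47, limma adjusted p = 0.0142, and 0.96 with limma adjusted p = 0.15 under TMM scaling), whose call was lost without DMSO replicate 1 (limma adjusted p = 0.0737) or NCS replicate 2 (0.0541). The means with NCS and MI-1061 against those with NCS were 234 against 140.2 for SLCO2B1, 18.98 against 20.7 for SLC34A3 and 45.9 against 55.3 for SLC5A2. Positive values were also called for SLC31A2 (1.64, SE 0.22, limma adjusted p = 2.17e-05), SLC16A10 (1.599, SE 0.36, limma adjusted p = 0.00173) and SLC9A7 (1.26, SE 0.20, limma adjusted p = 0.000114). Negative ones were called for SLC51A (-2.45, SE 0.29, limma adjusted p = 9.15e-06), SLC1A2 (-2.92, SE 0.50, limma adjusted p = 0.000188) and SLC26A8 (-2.43, SE 0.67, limma adjusted p = 0.00731). SLC9A4 (-2.79, SE 0.59, limma adjusted p = 0.00112) and SLC17A5 (-0.70, SE 0.22, limma adjusted p = 0.0148) were negative too. The positive sign for SLC16A10, whose mean was 64.3 with NCS against 153 with DMSO, was largely set by the selection.

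For MD-224, 3 members had a more positive response after NCS, against 4.07% of listed genes, and 9 a more negative one, against 7.19% (7 and 5 under TMM scaling, against 6.54% and 4.13%). The 12 calls became 7 without DMSO replicate 1, 6 without MD-224 replicate 3, 7, 5 and 4 without NCS replicates 1, 2 and 3, 7 and 6 without replicates 1 and 3 of NCS and MD-224, and 6 in limma on those groups alone. SLC30A3 (interaction 1.53, SE 0.39, limma adjusted p = 0.0186), SLC16A10 (1.20, SE 0.36, limma adjusted p = 0.0405) and SLC25A25 (1.10, SE 0.32, limma adjusted p = 0.036) had the positive values, and each was called lower with MD-224 without NCS. The most negative were SLC5A2 (-2.15, SE 0.53, limma adjusted p = 0.0166) and SLC1A2 (-1.81, SE 0.50, limma adjusted p = 0.029). Others were SLC44A5 (-1.70, SE 0.51, limma adjusted p = 0.0412, and -1.54 with limma adjusted p = 0.0622 under TMM scaling), SLC22A18 (-1.49, SE 0.37, limma adjusted p = 0.0175) and SLC2A12 (-1.31, SE 0.38, limma adjusted p = 0.036, and -1.15 with limma adjusted p = 0.0628 under TMM scaling). The lysosomal exporters SLC17A5 (-1.01, SE 0.22, limma adjusted p = 0.00919) and SLC38A7 (-0.75, SE 0.17, limma adjusted p = 0.011) were negative as well. SLC51A (-0.98, SE 0.29, limma adjusted p = 0.0401, and -0.82 with limma adjusted p = 0.0786 under TMM scaling) and SLC8A3 (-0.99, SE 0.31, limma adjusted p = 0.0462, and -0.83 with limma adjusted p = 0.0912 under TMM scaling) were the other 2. Several of these calls rest on single libraries.

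Leaving out single libraries ended the MD-224 interaction calls as follows. That of SLC30A3 was lost without NCS replicate 3 (limma adjusted p = 0.061), that of SLC22A18 also without NCS replicate 3 (0.0563), and that of SLC5A2 without NCS replicate 2 (0.0538). For SLC2A12 it was lost without DMSO replicate 1, MD-224 replicate 3, NCS replicate 2, NCS replicate 3 or NCS and MD-224 replicate 3 (limma adjusted p = 0.079 to 0.0953). The call of SLC1A2 was lost without replicate 1 or 3 of MD-224, 1 or 2 of NCS, or 1 or 3 of NCS and MD-224 (0.0536 to 0.0632). SLC25A25 lost it without DMSO replicate 1, replicate 1 or 3 of MD-224, 2 or 3 of NCS, or 1 or 3 of NCS and MD-224 (0.0512 to 0.0912). SLC16A10 lost it without replicate 2 or 3 of DMSO, 2 or 3 of MD-224, any of NCS, or 1 or 2 of NCS and MD-224 (0.051 to 0.109). SLC44A5 lost it without 10 of the 12 libraries, all but MD-224 replicate 2 and NCS replicate 2 (0.0519 to 0.115). SLC51A lost it without 10 of the 12, all but MD-224 replicate 1 and NCS and MD-224 replicate 1 (0.05003 to 0.0946). SLC8A3 lost it without 9, all but DMSO replicate 3, MD-224 replicate 1 and NCS and MD-224 replicate 2 (0.0518 to 0.122). In limma on these 4 groups alone the calls of SLC16A10 (adjusted p = 0.0658), SLC2A12 (0.0856), SLC30A3 (0.0524), SLC44A5 (0.064), SLC51A (0.0634) and SLC8A3 (0.0877) were lost.

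**Figure D5:**
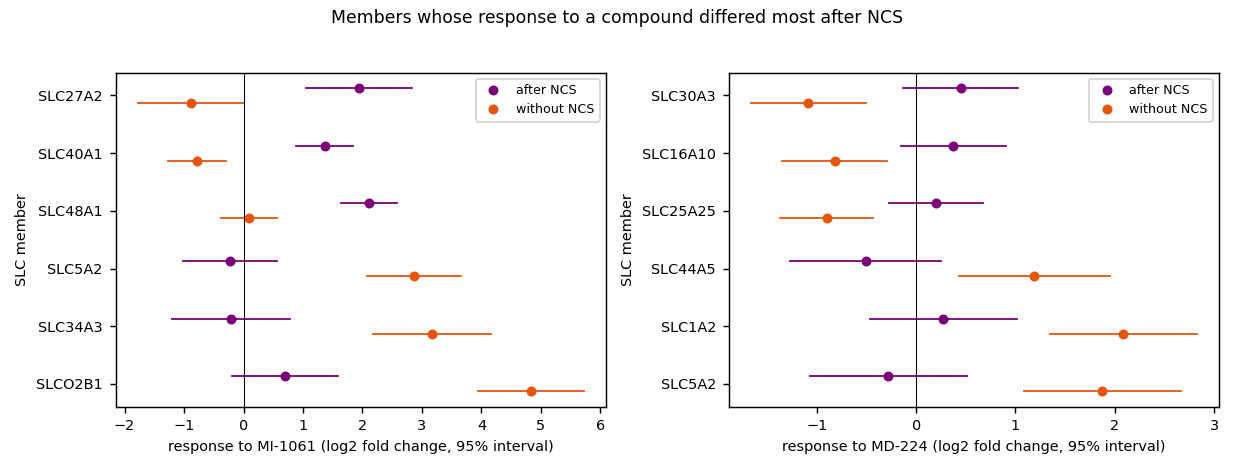
Points give the log2 fold change with MI-1061 (left) and with MD-224 (right), with 95% intervals, after NCS against NCS (purple) and without NCS against DMSO (orange), for the 3 SLC members with the largest interaction of each sign among those given by the naming rule. SLCO2B1 has 4.83 with MI-1061 without NCS and an interval that spans 0 after it, and SLC30A3 has -1.08 with MD-224 without NCS.

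Other transport genes gave counts of the same kind. Of 16 listed ABC transporters, pumps that use ATP, 12 rose with NCS, against 54% of listed genes (8 rose and 1 fell under TMM scaling), 11 with MI-1061, against 67.6% (6 and 4), and 7 with MD-224, against 39.9% (5 and 0). Of 22 listed ion-pumping ATPases, 16 rose with NCS, against 54% (3 and 1 under TMM scaling), 21 with MI-1061, against 67.6% (10 and 4), and 12 with MD-224, against 39.9% (0 and 0). With MD-224 against MI-1061 without NCS, 17 of the ATPases were lower, against 49.8% of listed genes (6 lower and 3 higher under TMM scaling), beside 5 lower and 1 higher of the ABC transporters, against 49.8% and 12.4% (4 and 5). Aquaporins, water channels, had 2 listed members, the MFSD family 1, and metallothioneins, which bind zinc and copper, 0. Of 15 genes of the amino acid response, a program that raises several amino acid transporters, 6 were listed, and 4 rose with MI-1061, against 67.6% (3 rose and 1 fell under TMM scaling), and 6 with MI-1061 after NCS, against 70.5% (3 and 0). Of 15 genes whose products partner with SLC proteins or traffic metals, 5 were listed (ARRDC4, NEDD4L, SGK1, TFRC and TMEM27), and 5 rose with MI-1061, against 67.6% (2 under TMM scaling), and 5 were lower with MD-224 than with MI-1061, against 49.8% (4 under TMM scaling). TFRC, the receptor that imports iron, averaged 22824 ± 1294 with NCS and MD-224 and 40823 ± 3009 with NCS and MI-1061, against 18113 ± 781 with NCS. Without NCS it averaged 13087 ± 391 with MD-224 and 41568 ± 12273 with MI-1061, against 17922 ± 3110.3 with DMSO (SD, n = 3 each). TFRC was thus higher in the mean with MI-1061 than without a compound in both sets. With MD-224 its mean was lower than with DMSO and, after NCS, higher than with NCS alone. The exporter SLC40A1 fell with MI-1061 alone and rose with it after NCS, a rise not called under TMM scaling.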

How the data were processed

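Poly(A)-enriched RNA of SJSA-1 cells in 6 groups of 3 libraries was analysed from 1 table of normalized counts (unit: signal) deposited by the authors. Recovery of whole reads gave size factors of 0.6506 to 1.553 for 13 of 18 libraries (tolerance 0.01), and 5 libraries were not used for count tests. Tools given in the submitters' processing notes, with no role stated, are DESeq2 2.11.40.6, featureCounts 1.6.3 and HISAT2 2.0.5.2, with the build GRCh38. The notes do not say how the 3074 genes were chosen, and the fold limit given in the results was read from the values. Use of strand in counting is not given in the sources used here.

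Groups were taken from the labels. Values were tested as log2(value + 1), so folds of low genes are understated, in limma 3.58.1 with a trend (R 4.3.3), with all 6 groups in 1 fit, genes at 10 or more in at least 3 libraries (3073 tested, all 71 members among them) and Benjamini-Hochberg adjustment over all genes tested, with calls under 0.05. There were 7 pairwise comparisons and 2 interactions. The alternatives were a pseudocount of 5, no filter, a mean of at least 50, TMM scaling (edgeR 4.0.16), a replicate block, a fit of only the groups compared, each library left out, each replicate number left out, and, for the 3 comparisons without NCS whose reads were whole, edgeR's quasi-likelihood test and DESeq2 1.42.0 on recovered reads. Library pairs within a group correlated at 0.9636 to 0.9921 (Pearson, log2 values).

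Same-numbered libraries deviated together (every correlation of deviations over 0.1, the lowest between 0.1017 and 0.2149) in 6 of 7 pairwise comparisons, but not for NCS against DMSO (lowest 0.0627) or the interactions, and the labels do not say what a number marks. The main fit has no replicate term, so its p-values do not use this pairing. Values per library are given for members among the 5 largest called rises or falls of a comparison (mean of at least 50, groups apart), the 3 largest interactions per direction or the 5 highest means. Substrate classes follow family numbers. Values of 3 members are not reported here, while counts over members include them. The members and all lists were chosen with earlier results of these data known. Promoters and coordinates are from RefSeq on GRCh38.p14, and figures were drawn with Python 3.11.15 and matplotlib 3.10.9. Confidence intervals are limma's at 95% and cover the spread between libraries.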

Additional observations from a re-analysis of the deposited data

Results flagged for a closer look

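The response to MI-1061 differed after NCS from that without NCS, by a limma interaction with adjusted p under 0.05, in 33 members, of which the rule named 6. It was more positive in 18, against 23.5% of listed genes, and more negative in 15, against 20.8%. The interaction was 2.82 for SLC27A2, 2.15 for SLC40A1 and 2.02 for SLC48A1, which rose with MI-1061 after NCS, and -4.13 for SLCO2B1, -3.39 for SLC34A3 and -3.08 for SLC5A2, on the log2 scale. In SLC40A1 the direction itself turned, with a fall with MI-1061 alone (-0.78) and a rise after NCS (1.36, though 0.37 and not called under TMM scaling). With NCS alone near DMSO, the sign of the rise after NCS was set by the selection of listed genes. The fall uses the libraries with MI-1061 alone, to which the fold limit does not apply. The positive interactions of SLC27A2 and SLC48A1 were largely set by the selection too.

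The response to MD-224 differed in the same way in 12 members, of which the rule named 6. It was more positive in 3, against 4.07% of listed genes, and more negative in 9, against 7.19%. The interaction was 1.53 for SLC30A3, 1.20 for SLC16A10 and 1.10 for SLC25A25, which were lower with MD-224 than with DMSO without NCS. It was -2.15 for SLC5A2, -1.81 for SLC1A2 and -1.70 for SLC44A5, which were higher with MD-224 than with DMSO without NCS. All 6 of these MD-224 interactions lost their call without at least 1 library.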

How the results depend on the processing

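A pseudocount of 5, no filter, a mean of at least 50 and the replicate block changed no call among the named results they covered (154 results, or 134 at a mean of at least 50). TMM scaling made a call of the 1 result not called as deposited, so further new calls could not show in this set. Over all members, those higher with MD-224 than with MI-1061 after NCS numbered 16 under TMM scaling and 2 as deposited (11.6% and 0.748% of listed genes). Of the 153 calls TMM scaling ended 36. In 7 of those 36 the sign turned as well, all of them rises under the deposited scaling: SLC35E1 (-0.13) and SLC7A6 (-0.047) with MI-1061 after NCS, SLC16A10 (-0.15), SLC31A2 (-0.25), SLC35E3 (-0.23) and SLC38A10 (-0.18) with MI-1061, and SLC38A10 (-0.12) with NCS. TMM scaling levels a list selected as higher with NCS and MI-1061, so ended calls and turned signs are relative to the listed genes. Members called numbered 18 with NCS under TMM scaling (53 as deposited). With MD-224 against DMSO they numbered 37 by limma, 44 with the replicate block, 31 with DESeq2, 22 with edgeR, 21 with only the groups compared and 23 under TMM scaling. Of 3073 listed genes the block called 1495 higher and 118 lower there, and DESeq2 990 and 57. With MD-224 after NCS the members called numbered 7, against 1 under TMM scaling, and for the MD-224 interaction 12, against 6 with only the groups compared. The replicate block gave 52 calls with MI-1061 (47 in the main fit), 51 with MI-1061 after NCS (47) and 11 with MD-224 after NCS (7). Between the compounds it gave 50 without NCS (46) and 42 after NCS (36). It gave 19 for the MD-224 interaction, for which numbers were not shown to pair the libraries.

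Leaving out 1 library, or 1 replicate number in all groups, gave 30 to 50 called members with NCS, 39 to 49 with MI-1061, 15 to 32 with MD-224, 37 to 47 with MI-1061 after NCS, 2 to 8 with MD-224 after NCS, 28 to 47 and 28 to 35 between the compounds without and after NCS, and 18 to 37 and 0 to 12 for the MI-1061 and MD-224 interactions. Low counts limit 21 members that average under 100. Whole reads were recovered in 13 libraries, so count tests were not run with NCS.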
